A study of Schizosaccharomyces pombe with 4 samples.

Results

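The snoRNA genes of the fission yeast Schizosaccharomyces pombe were examined for Ser5P, RNA polymerase II whose repeated tail is phosphorylated on serine 5, as it is when transcription starts. They were all 66 genes that the RefSeq annotation of assembly ASM294v3 gives the biotype snoRNA, of 12606 annotated genes on the 3 chromosomes. A snoRNA gene was host-borne where it overlapped a protein-coding gene on either strand by at least 1 bp, which gave 22 genes, and free-standing otherwise, which gave 44 genes. Membership and class followed the annotation alone, but this group of genes was chosen with earlier results of these data known. Of the host-borne genes, 12 lay in an intron of a protein-coding gene of their own strand, and 10 overlapped a protein-coding gene of the opposite strand alone. Of the free-standing genes, 13 lay inside a longer annotated non-coding gene. The annotation names 9 of the 66 by systematic name alone, most of them as precursors of named snoRNAs. Genes with overlapping windows share their coverage, and joining them left 53 loci.

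The study compared wild-type cells with the ABP1d mutant, a strain without Abp1, a fission yeast homolog of the centromere protein CENP-B, in relation to cryptic transcription of Tf2 elements and rRNA genes. Both strains grew exponentially in YES, a rich medium, and were fixed with 1% formaldehyde for 15 min before quenching with 125 mM glycine. Chromatin was sheared to 250 to 400 bp and precipitated with the Ser5P antibody ab5131. Labels are given for 4 samples, with 1 input and 1 ChIP per genotype. Each ChIP sample has 1 list of scored intervals, 3242 in wild type and 2851 in ABP1d. The labels name no strain background, marker or clone. With 1 list per genotype there was no replicate, so every value below describes these 2 libraries and no test between genotypes was made. The lowest deposited score was 200 in both lists and read depth is unknown, so a gene without an interval was below that score, not shown to be free of polymerase. Fewer cells with polymerase at a gene and less polymerase per cell cannot be told apart. The labels give no systematic name for the deleted gene. It was taken from knowledge of the gene as SPBC1105.04C, which the annotation calls cbp1, and neither list had an interval there or within 250 bp, so these files do not check the deletion. The mutant ChIP sample is spelled APB1d in its source name, by which it was grouped, and in its title, and ABP1d in its genotype label; the spellings were taken as the same strain.

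Small nucleolar RNAs are guides and processing factors of ribosome synthesis. Box C/D RNAs carry short conserved boxes, named C and D, near their ends and direct 2′-O-methylation of ribosomal RNA, and box H/ACA RNAs direct pseudouridylation. A few, among them U3, U14 and U17 (snR30 in budding yeast), are needed for cleavage of the ribosomal RNA precursor. Polymerase II makes them from promoters of their own, from precursors that carry several snoRNAs, or within introns of protein-coding genes, from which they are cut after splicing.

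The share of snoRNA genes with a Ser5P interval stood above that of all annotated genes in both lists. Over the gene and 250 bp on each side, 31 of 66 snoRNA genes (47%) held an interval in wild type and 26 (39.4%) in ABP1d. The same window held an interval at 6.76% of all annotated genes in wild type and 6.58% in ABP1d. For protein-coding genes the shares were 8.47% and 8.39% of 5113. The lncRNA genes had 5.3% and 5.16% of 7133. None of 171 tRNA genes, the targets of polymerase III, was marked in either list (0%). The snRNA genes stood higher than the snoRNA genes, with 5 of 6 (83.3%) in each list. Since snoRNA genes are short, with a median length of 114 bp, the count was repeated with a window of equal width for every gene, 300 bp on each side of the midpoint. This left 31 and 26 snoRNA genes, against 4.7% and 4.54% of all genes. Inside the annotated gene itself, 19 snoRNA genes (28.8%) had covered bases in wild type and 16 (24.2%) in ABP1d, beside 5.06% and 4.95% of all genes.

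**Figure D1:**
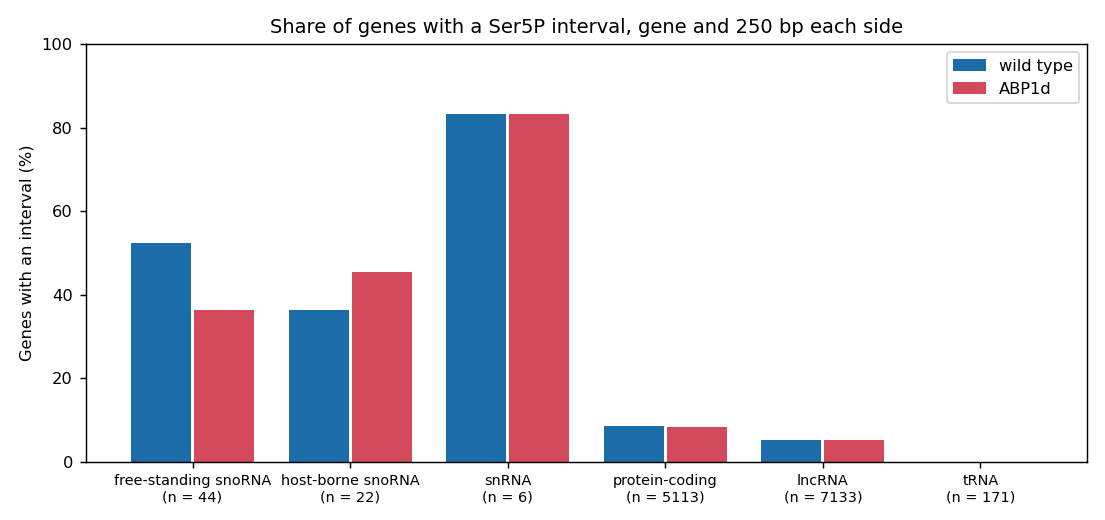
Percent of annotated genes with at least 1 bp of an interval in the gene or 250 bp on either side (y axis), by biotype (x axis, with the number of genes), in wild type (blue) and ABP1d (red). Free-standing snoRNA genes reached 52.3% in wild type and 36.4% in ABP1d, host-borne ones 36.4% and 45.5%, and no tRNA gene had an interval.

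The lists together marked 33 snoRNA genes, and 24 of these (72.7%) were marked in both, near the share over all annotated genes, 72.4% of 975. These 24 were 36.4% of all 66, 7 had an interval in wild type alone (10.6%) and 2 in ABP1d alone (3.03%), and 33 had none in either. Over all annotated genes 5.6% had an interval in both lists, 1.16% in wild type alone and 0.976% in ABP1d alone. Free-standing genes numbered 23 of 44 (52.3%) in wild type and 16 (36.4%) in ABP1d, and those 16 were all among the 23. Host-borne genes numbered 8 of 22 (36.4%) in wild type and 10 (45.5%) in ABP1d, and those 8 were all among the 10. So over this window each gene found in wild type alone was free-standing, and each found in ABP1d alone was host-borne. Inside the annotated gene the split was not seen. There, 5 genes were covered in wild type alone (7.58%) and 2 in ABP1d alone (3.03%), beside 0.833% and 0.722% of all genes. Those 2, snoU14 and snR88, were free-standing, as were the 5. As loci, 25 of 53 were covered in wild type and 23 in ABP1d. Both lists covered 21 of them, wild type alone 4 and ABP1d alone 2. The covered length at free-standing genes, each base counted once, came to 5132 bp of the 25382 bp of windows in wild type and to 5183 bp in ABP1d. At host-borne genes it was 2400 and 2641 bp of 14792 bp.

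**Figure D2:**
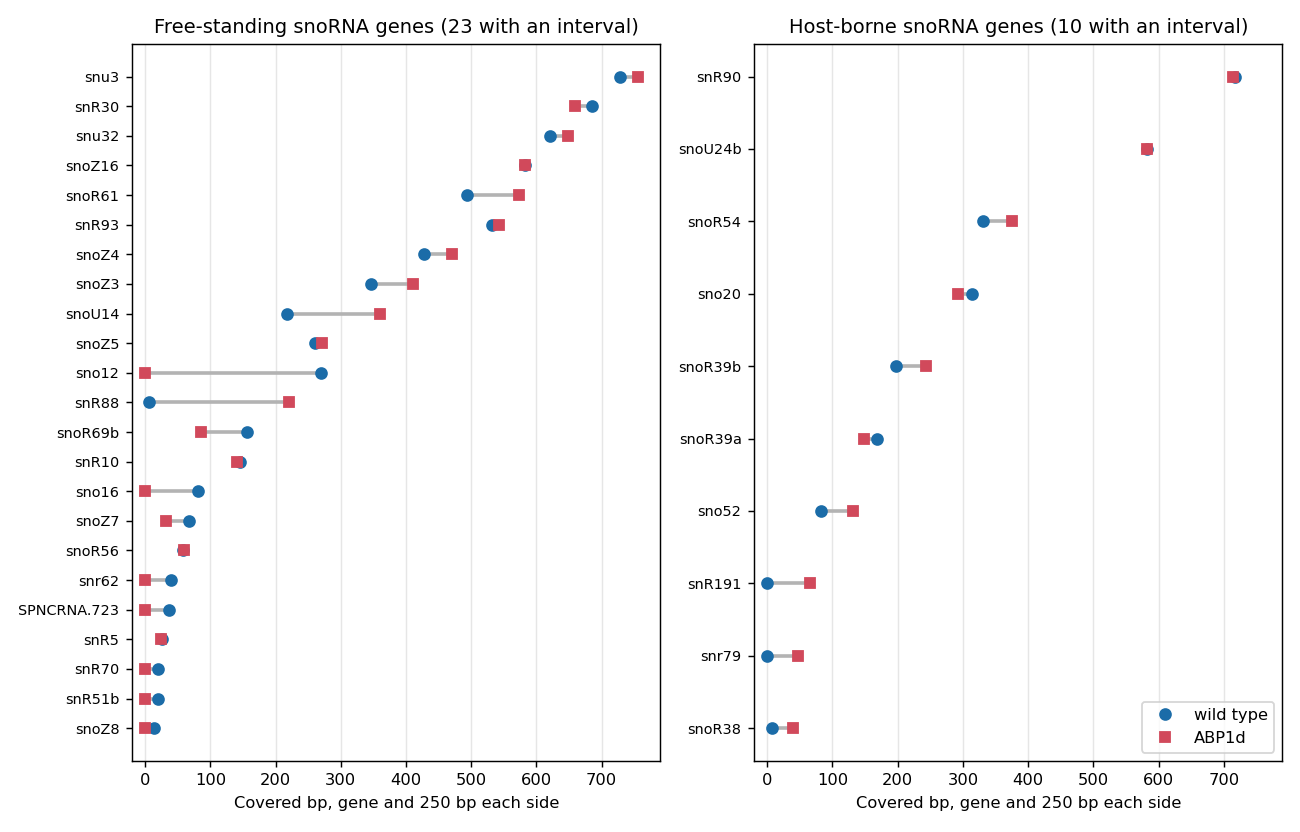
Covered bp in the gene and 250 bp on each side (x axis) for each snoRNA gene with an interval (y axis), free-standing at left and host-borne at right, in wild type (blue circles) and ABP1d (red squares). The largest gaps were at sno12, with 269 bp in wild type and 0 in ABP1d, and snR88, with 6 and 221 bp.

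At the 24 genes covered in both lists, covered length and score lay in similar ranges. More bp were covered in ABP1d at 14, fewer at 8, and equally many at 2, beside 55.9% of protein-coding genes with more bp in ABP1d over the same window. The highest score was higher in ABP1d at 14 (58.3%) and lower at 10, beside 54.8% higher among all genes with an interval in both lists. These 14 are not separate loci: snoZ7, snoZ5, snoZ4 and snoZ3 are among them and take the same ABP1d score, 395, from 1 region. The share therefore counts that region more than once. Whether the 2 lists share a scale is not known. The median ratio of the scores, ABP1d over wild type, was 1.02 for these snoRNA genes and 1.02 for 374 protein-coding genes, whose middle 50% ran from 0.906 to 1.25.

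The windows of the genes for the processing RNAs U3 and U14 had the highest scores of the free-standing group in both lists. That of the U17 gene came next in wild type. At snoU14 the score was that of an interval upstream of the gene. Inside the gene snoU14 had no covered base in wild type and a score of 483 in ABP1d. U3, the box C/D RNA that pairs with the ribosomal RNA precursor and is needed to cut out the small-subunit RNA, has 2 genes, snu3 on chromosome I and snu32, annotated as U3B, on chromosome II. At snu3 the highest score was 1117 in wild type and 1056 in ABP1d, with 728 and 756 bp covered of its window. At snu32 it was 1184 and 1041, with 621 and 648 bp. Both genes were covered from end to end in both lists. When intervals up to 100 bp apart were merged into regions and ranked by score within each list, the snu32 region stood 13th of 477 in wild type and 31st of 442 in ABP1d. The snu3 region stood 15th and 27th.

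The 2 U3 genes are near copies, so their values may not be independent. The RefSeq sequence of snu32 aligned over its whole length with a stretch at the snu3 locus, chrI:987692-987947 on the minus strand, and 234 of 256 alignment columns (91.4%) were identical. That stretch begins 122 bp before the annotated start of snu3 (chrI:987570-987825), and 134 of its bases lie inside the annotated gene, so the annotated snu3 and the U3-like sequence do not coincide. Intervals covered all 256 bp of the stretch in both lists. The pair is printed because their shared bases decide how far reads can be assigned to 1 gene, and capitals mark the bases that differ or are unmatched in the alignment:
snu3 locus stretch: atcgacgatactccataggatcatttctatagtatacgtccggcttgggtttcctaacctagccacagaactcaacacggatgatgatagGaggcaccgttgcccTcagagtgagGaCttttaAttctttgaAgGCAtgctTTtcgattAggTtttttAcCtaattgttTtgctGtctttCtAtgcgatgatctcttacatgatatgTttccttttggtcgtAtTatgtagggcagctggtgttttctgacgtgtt
snu32 (chrII:3958832-3959086, minus strand): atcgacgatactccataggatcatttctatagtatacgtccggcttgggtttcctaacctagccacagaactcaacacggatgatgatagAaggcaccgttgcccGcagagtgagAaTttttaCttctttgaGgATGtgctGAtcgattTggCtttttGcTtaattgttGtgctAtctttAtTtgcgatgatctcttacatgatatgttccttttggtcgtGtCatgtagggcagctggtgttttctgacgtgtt

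Of the 206 stretches of 50 bases in snu32, 41 (19.9%) recur at the snu3 locus, and no other snoRNA gene long enough to be searched had a repeated stretch of that length. How reads with several matches were treated is not given in the sources used here, and how far the score at each U3 gene reflects reads of the other was not tested.

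U17, encoded by snR30, is a box H/ACA-type RNA whose budding yeast counterpart is essential for making the small ribosomal subunit. All 326 bp of the gene were covered in both lists. In wild type 685 bp of the window were covered with a highest score of 596, and in ABP1d 659 bp with 496. In wild type the main interval ran from 109 bp before the start to 730 bp after it, and in ABP1d from 37 bp before to 749 bp after. The region therefore crossed the end of the snoRNA and reached into pdi4, a protein-coding gene of the opposite strand that ends beside it, where 234 bp of the window were covered in each list. ChIP has no strand, so these bases cannot be assigned to either gene.

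snoU14 encodes U14, a box C/D RNA needed for cleavage of the ribosomal RNA precursor; the lists differed in where its intervals lay. Its window held 218 bp in wild type with a highest score of 934, and 360 bp in ABP1d with 1304. None of the 112 bp of the gene was covered in wild type, and all 112 bp were in ABP1d. The high-scoring interval lay upstream: in wild type it ran from 994 to 33 bp before the snoU14 start and in ABP1d from 1093 to 24 bp before, over mamRNA, a lncRNA of the same strand known to bind the RNA elimination factor Mmi1. All 679 bp of mamRNA were covered in both lists. The gene itself was covered in ABP1d by a separate interval with a score of 483, from 1 bp before the start to 131 bp after it. This region ranked 26th in wild type and 17th in ABP1d.

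**Figure D3:**
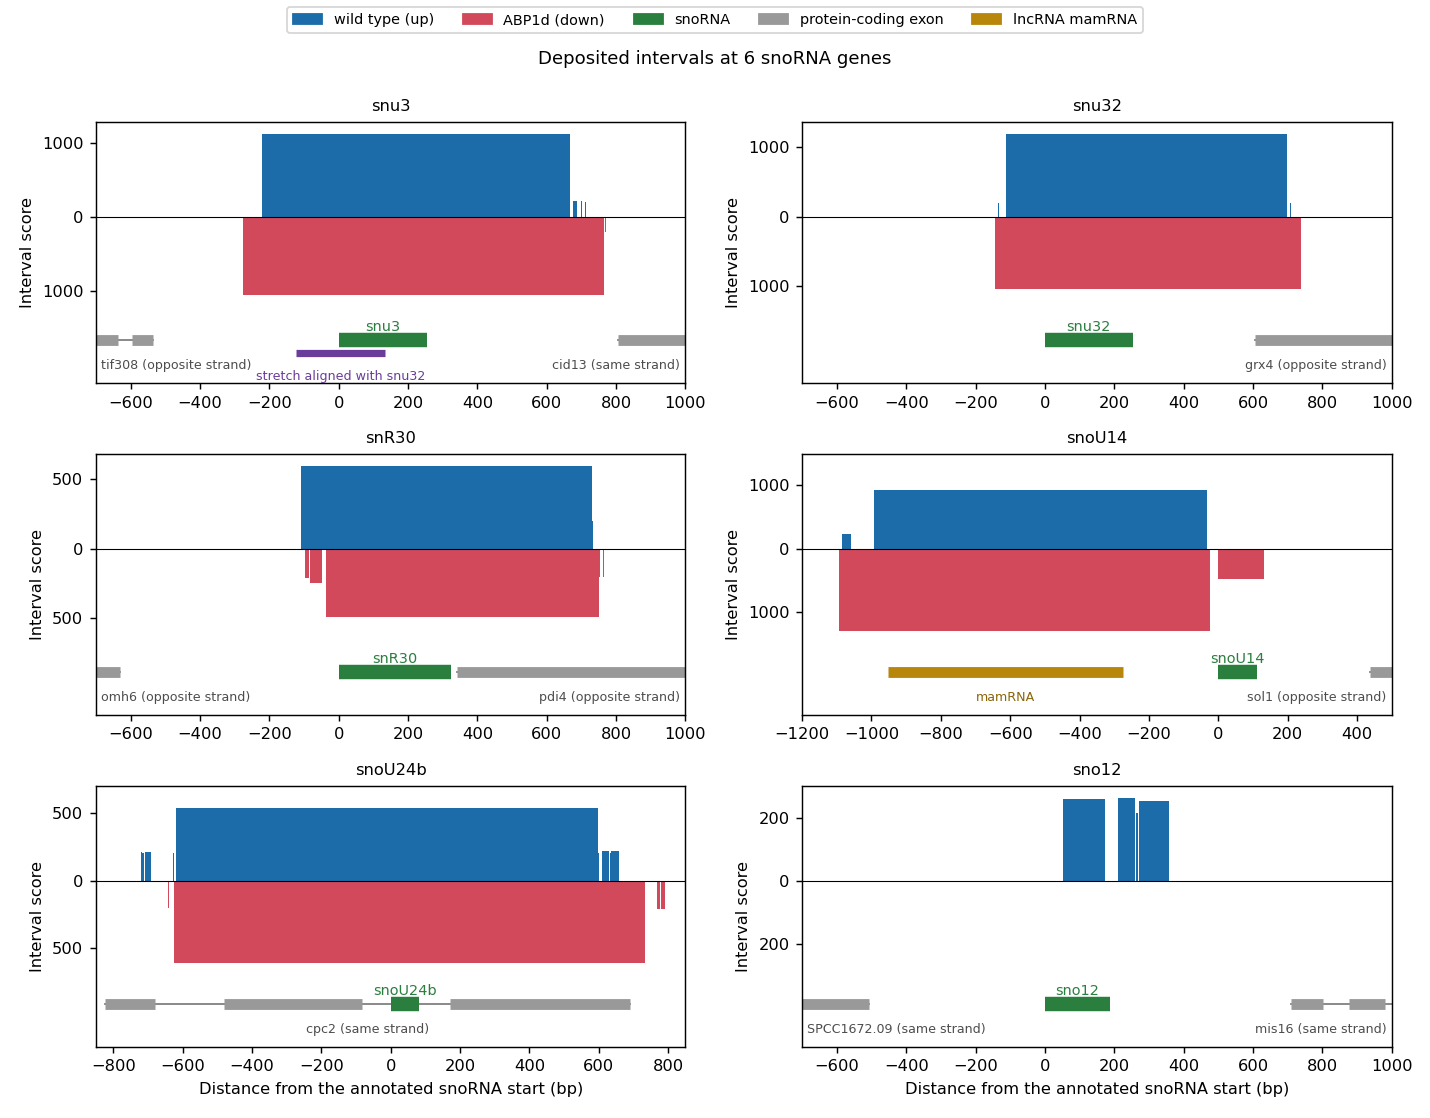
Deposited intervals at 6 snoRNA genes, with the distance in bp from the annotated snoRNA start on the x axis, in the direction of the gene, and the interval score on the y axis, wild type upward in blue and ABP1d downward in red. Genes are drawn below: at snoU14 the wild-type interval ended 33 bp before the gene, at sno12 only wild type had intervals, and at snoU24b the intervals covered the snoRNA and parts of the cpc2 exons on either side.

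Next to these stood 3 other free-standing genes covered from end to end in both lists. snoZ16 encodes a box C/D RNA of 83 bp. All 583 bp of its window were covered in both lists, with highest scores of 516 and 525. The covered region, which began 521 bp upstream of snoZ16 in wild type and 536 bp upstream in ABP1d, held mrp1, the gene for the RNA of RNase MRP, an enzyme that cuts the ribosomal RNA precursor. In mrp1, 361 of 399 bp were covered in wild type and 387 in ABP1d, with the same highest scores as at snoZ16. snR93, an H/ACA gene of 143 bp, had 532 and 543 bp covered in its window and scores of 328 and 301, and its region reached over bases of the ribosomal protein gene rpl29. snoZ4 had all 88 bp covered in both lists, with scores of 361 and 395.

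snoZ4 belongs to the snoZ precursor, a non-coding gene of 1901 bp that carries 5 annotated snoRNAs in the order snoZ8, snoZ7, snoZ5, snoZ4 and snoZ3, and coverage was uneven along it. The precursor had 472 bp covered in wild type and 529 bp in ABP1d. Within the gene, snoZ8 had no covered base in either list, and snoZ7 had 14 bp in wild type and 0 in ABP1d. snoZ5 had 47 bp of 85 in wild type and 21 bp in ABP1d. At the far end, snoZ3 had 81 bp of 90 in wild type and all 90 bp in ABP1d. Of the 5 genes, the last 2, snoZ4 and snoZ3, had the largest share of their length covered in both lists.

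snoR61, annotated as a longer gene of 653 bp, was covered for 322 bp in wild type with a highest score of 285 and for 342 bp in ABP1d with 279. Of the remaining free-standing genes with intervals in both lists, snR10, snoR69b, snR5 and snoR56 had no covered base inside the gene in either list. snR10, an H/ACA RNA that takes part in small-subunit RNA processing in budding yeast, had its interval upstream, in wild type from 315 to 92 bp and in ABP1d from 301 to 107 bp before the start, with scores of 254 and 250. snoR69b also had upstream bases alone, 156 bp in wild type and 85 bp in ABP1d, with scores of 314 and 260. snR5 had 26 and 25 bp, upstream. At snoR56 the 58 and 59 covered bp lay inside the neighbouring protein-coding gene aif1. snR88 had 6 bp in wild type and 221 bp in ABP1d, of which 54 bp lay in the gene with a score of 230, and the highest score of its window in ABP1d, 501, belonged to an interval in the neighbouring gene tnr3.

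The 7 free-standing genes found in wild type alone had scores near the lowest deposited one. At sno12, an H/ACA gene on chromosome III, 269 bp of the window and 124 of 190 bp of the gene were covered in wild type, with a highest score of 262, which put its region at rank 270 of 477. The nearest ABP1d interval was 20002 bp away. sno16 had 81 bp, all inside the gene, with a score of 221, and the nearest ABP1d interval was 11686 bp away. snr62 had 39 bp past its end with a score of 230, and an ABP1d interval lay 330 bp from the gene, just outside the window. snoZ8 had 14 bp with a score of 216. SPNCRNA.723, a precursor, and the genes snR70 and snR51b inside it share the same 20 covered bp with a score of 208. SPNCRNA.723 also had 17 bp within its neighbour sir1, a protein-coding gene of the opposite strand, with a score of 222. The highest scores of the 7 genes lay between 208 and 262.

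Intervals at free-standing genes were spread over the gene and both sides of it. In wild type the number of covered genes was 2 of 44 at 500 bp before the start, 9 at 100 bp before it, and reached 11 at 70% of the gene length. In ABP1d it was 2 at 500 bp before, 8 at 100 bp before, and reached 11 at the gene end. At 500 bp past the end, 7 genes were still covered in wild type and 6 in ABP1d. Of the free-standing genes with an interval, 14 had more covered bp past the end than before the start in wild type, and 6 had fewer. In ABP1d the counts were 8 and 6. The 14 are not separate loci: snoZ8, snoZ7, snoZ5 and snoZ4 lie together, as do SPNCRNA.723 and snR70. At SPNCRNA.723, snR88 and snoR56 all wild-type bases past the end lay in a protein-coding neighbour. Of the bases covered at free-standing genes, 481 of 5132 (9.37%) in wild type and 611 of 5183 (11.8%) in ABP1d lay in a protein-coding gene.

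**Figure D4:**
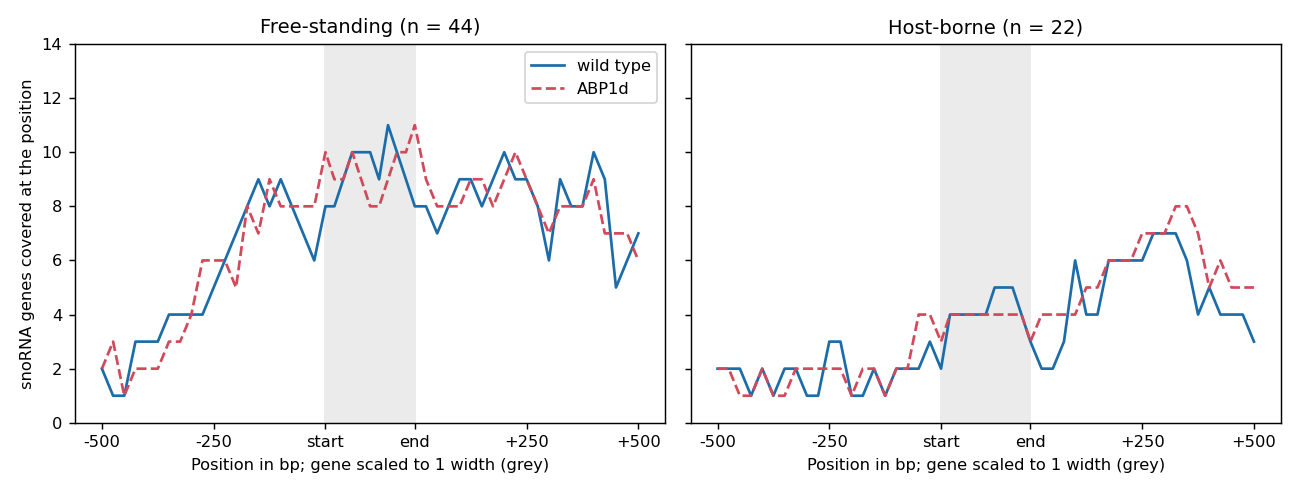
Number of snoRNA genes covered (y axis) by position (x axis), from 500 bp before the start to 500 bp past the end with the gene scaled to 1 width (grey), for free-standing genes at left and host-borne genes at right, in wild type (solid blue) and ABP1d (dashed red). From the gene onward, counts at free-standing genes ran between 5 and 11 in wild type and between 6 and 11 in ABP1d. The highest, 11 of 44 in each list, was inside the gene, but 10 were covered 200 bp past the end in wild type and 225 bp past it in ABP1d. Host-borne genes had their highest counts past the end, 7 of 22 in wild type and 8 in ABP1d.

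For host-borne genes the most members were covered not in the snoRNA but downstream of it, 7 at 275 to 325 bp past the end in wild type and 8 at 325 to 350 bp in ABP1d. Over the whole windows, 1903 of 2400 covered bp (79.3%) in wild type and 2193 of 2641 bp (83.0%) in ABP1d lay in a protein-coding gene, which was the host or, at sno52 for example, also a neighbour. With bases in protein-coding genes left out, 2 host-borne genes kept an interval in each list, snR90 and sno20.

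Of the 12 genes in introns, wild type marked 5 (41.7%) and ABP1d 6 (50%), beside 6.76% and 6.58% of all annotated genes. The hosts of the marked genes were cpc2 (the ribosomal protein RACK1) with snoU24b, gua1 (IMP dehydrogenase) with snoR54, and rpl701 (an L7-like ribosomal protein) with snoR39b. They also were rlp7 (a ribosome assembly protein) with snoR39a, SPAC29A4.02C (elongation factor EF-1 gamma) with snoR38, and nog2 (a GTPase of ribosome export) with snR191. As background, budding yeast carries U24, snR38, snR54 and snR191 in introns of the genes for the same proteins. The other intron hosts, ade4, spt20, ipa1, pfd1, ero11 and fta3, had no interval in either list. The RefSeq sequences of the 5 found in both lists are printed since they place the snoRNA within the covered hosts, and capitals mark TGATGA, a box C match, in the first 30 bases and CTGA, a box D match, in the last 20, each where present:
snoU24b (chrI:2440336-2440418, plus strand): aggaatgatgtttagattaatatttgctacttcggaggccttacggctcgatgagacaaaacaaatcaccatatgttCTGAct
snoR54 (chrII:1707601-1707681, plus strand): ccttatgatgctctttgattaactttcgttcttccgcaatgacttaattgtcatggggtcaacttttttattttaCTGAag
snoR39b (chrII:1791743-1791820, minus strand): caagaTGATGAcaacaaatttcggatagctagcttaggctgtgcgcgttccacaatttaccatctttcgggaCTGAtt
snoR39a (chrI:1712996-1713071, plus strand): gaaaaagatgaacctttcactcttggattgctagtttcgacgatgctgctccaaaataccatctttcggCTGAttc
snoR38 (chrI:5144133-5144206, plus strand): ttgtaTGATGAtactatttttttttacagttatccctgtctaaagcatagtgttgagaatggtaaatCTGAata

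The intron-borne genes differed in whether the snoRNA itself was covered. snoU24b, whose budding yeast counterpart guides methylation of the large ribosomal RNA, was covered in all 83 bp of the gene and all 583 bp of its window in both lists, with scores of 533 and 609. Its host cpc2 was covered for 1291 bp in wild type and 1320 bp in ABP1d, of which 394 and 400 bp were intron. snoR54 had 77 and 78 of 81 bp covered, in a host with 808 bp covered in wild type and 1188 bp in ABP1d. snoR39b had 32 bp of 78 in wild type and 2 bp in ABP1d, while its host rpl701 had 705 and 796 bp. snoR39a and snoR38 had no covered base in either list, and the covered bases of their hosts lay past them. In rlp7 these were 655 bp in wild type, 6 of them intron, and 680 bp in ABP1d, none of them intron. In SPAC29A4.02C they were 354 and 910 bp, none of them intron. snR191 had 66 bp in its window in ABP1d alone, with a score of 223, and none inside the gene.

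Among the 10 genes on the opposite strand of a protein-coding gene, wild type marked 3 (30%) and ABP1d 4 (40%), beside 6.76% and 6.58% of all annotated genes. snR90, an H/ACA gene of 488 bp that overlaps the end of not3, had 467 and 464 bp covered inside the gene, with scores of 433 and 461. sno20, an H/ACA gene within SPBC1921.04C, an uncharacterized protein-coding gene, had 161 and 169 of 172 bp covered, with scores of 302 and 275 in its window. At sno52, opposite taf9, the 82 and 131 covered bp were upstream, in a region that reached over mcp60, and none lay in the gene. snr79, opposite gpi12, had 47 bp in ABP1d alone with a score of 221, outside the gene.

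All host genes with intervals were covered further in ABP1d, a count made after the values were seen. Of the 23 protein-coding genes that overlap a snoRNA gene, the same 10 had an interval between their start and end in each list, and all 10 had more covered bp in ABP1d. Among the 319 protein-coding genes with an interval in both lists, 56.1% had more covered bp in ABP1d. Of the 10, 4 lie opposite their snoRNA gene, and not all covered bases are apart from other genes. In SPBC1921.04C, 161 bp in wild type and 169 bp in ABP1d lay in sno20 itself. The covered bases of taf9 were the edge of the region over mcp60. How far the count reflects the hosts was not tested. The differences ranged from SPAC29A4.02C, with 354 and 910 bp, and gua1, with 808 and 1188 bp, to the small differences at rlp7 (655 and 680 bp), SPBC1921.04C (178 and 202 bp) and cpc2 (1291 and 1320 bp). nog2 had 15 and 107 bp, gpi12 3 and 109 bp, taf9 30 and 100 bp, and not3 451 and 498 bp. Over the upper 50% of merged regions of each list by score, an alternative chosen after seeing the data, 6 hosts had more bp in ABP1d and 1 in wild type. The other hosts, such as ade4, spt20, tim17 and cit1, had no interval in either list.

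**Figure D5:**
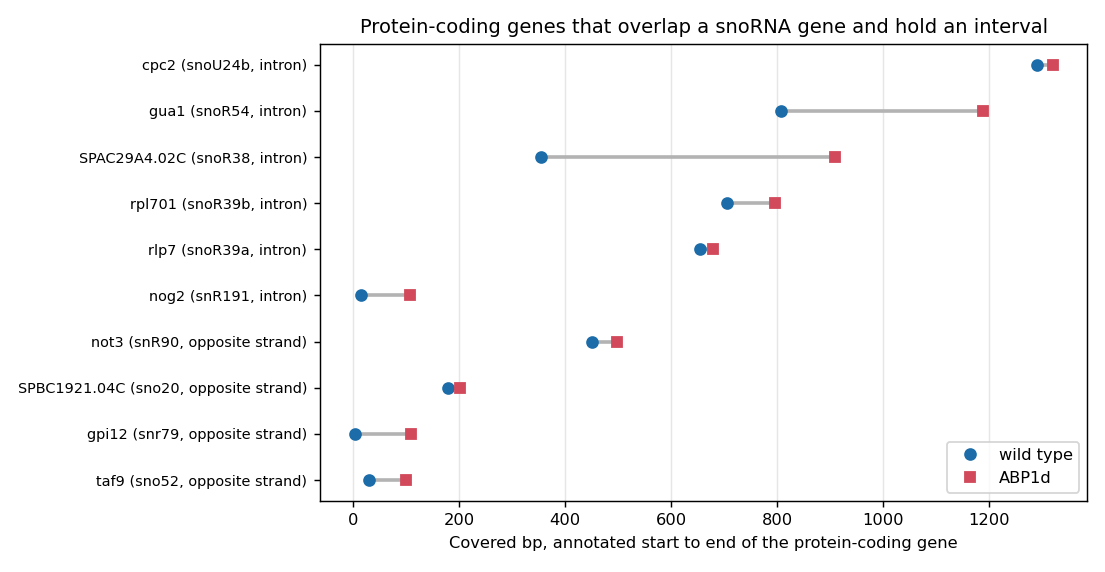
Covered bp between the annotated start and end (x axis) of the 10 protein-coding genes that overlap a snoRNA gene and hold an interval (y axis, with the snoRNA gene and how it lies), in wild type (blue circles) and ABP1d (red squares). Each host had more covered bp in ABP1d, with 202 against 178 bp at SPBC1921.04C and 910 against 354 bp at SPAC29A4.02C as the smallest and largest differences.

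The annotation gives 19 genes a product named box H/ACA. Of these, 6 held an interval in wild type and 5 in ABP1d. Among free-standing genes alone, 4 of 14 H/ACA genes held an interval in wild type and 3 in ABP1d, beside 19 and 13 of the 30 others. Over all annotated genes the shares were 6.76% and 6.58%. Nested genes raise the counts of the others: joined into loci, 13 and 10 of 22 were covered, beside 4 and 3 of 14 for H/ACA. Product names do not state the class of every gene: that of snR30 reads U17 and names no class. By a rule on sequence, 18 genes matched box C/D, and 9 of them held an interval in wild type and 8 in ABP1d. The rule misses members of the class: it left 29 genes unclassed, among them both U3 genes. Of these 29, 16 held an interval in wild type and 13 in ABP1d. Of the 9 genes with a systematic name alone, 1 held an interval in wild type and none in ABP1d.

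Upstream sequence was described next. In RefSeq promoter windows of ASM294v3, from 250 bases before to 50 after the annotated start, CAGTCAC on either strand, the core of the HomolD box known from fission yeast ribosomal protein genes, occurred at 17 of 66 snoRNA genes (25.8%). It occurred at 3.25% of 12605 genes in all and at 4.71% of 5112 protein-coding genes. Its share was about the same at free-standing genes with an interval, 7 of 23, and without one, 6 of 21. Host-borne genes had it at 4 of 22. Nested genes share windows, so these counts hold some sites more than once. TATAAA on either strand was at 48.5% of snoRNA genes and 45.3% of all genes, and ACCCTAC, a HomolE-like motif, on either strand at 2 snoRNA genes (3.03%) and 1.74% of all. A match describes letters in a window and was not tested as a binding site. For 4 covered genes the 90 bases before the start, or before the U3-like stretch at the snu3 locus, are printed to show the spacing, with CAGTCAC on either strand and TATAAA on the sense strand in capitals:
snR30 (chrI:3394785-3394874, plus strand): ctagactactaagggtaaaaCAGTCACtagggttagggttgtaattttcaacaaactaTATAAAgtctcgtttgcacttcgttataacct
sno20 (chrII:2411100-2411189, plus strand): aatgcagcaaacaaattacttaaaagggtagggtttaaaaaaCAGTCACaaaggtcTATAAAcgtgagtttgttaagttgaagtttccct
snu32 (chrII:3959087-3959176, minus strand): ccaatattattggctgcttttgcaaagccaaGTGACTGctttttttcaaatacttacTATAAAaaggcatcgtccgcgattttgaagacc
snu3 locus stretch (chrI:987948-988037, minus strand): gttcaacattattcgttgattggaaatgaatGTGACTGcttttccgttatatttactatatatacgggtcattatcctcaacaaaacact

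In snR30 the HomolD core began 70 bases before the start and TATAAA 32 bases before it. In sno20 they began 48 and 34 bases before the start. Both U3 sequences had the core on the antisense strand 59 bases before their start, and counted from the annotated start of snu3 it was 181 bases away. snu32 had TATAAA 33 bases before its start.

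Many snoRNA genes were far from any interval. The 35 without one in wild type were a median of 11951 bp from the nearest interval, with a range of 302 to 39141 bp, and 5 were within 1000 bp. In ABP1d the 40 without one had a median of 13868.5 bp and a range of 306 to 77801 bp, and 4 were within 1000 bp. Of the 33 genes without an interval in either list, 13 have a product named box H/ACA, such as snR3, snR42, snR46 and snR92. The group also holds the intron-borne snoU18, snoZ15, snoR47 and snoR58.

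Genes for the proteins that assemble, modify with or process snoRNAs were counted beside them. Of 22 such protein-coding genes, 1 held an interval in its window in wild type and 2 in ABP1d, beside 8.47% and 8.39% of protein-coding genes. fib1, for the methyltransferase fibrillarin of box C/D particles, had 50 bp in ABP1d with a score of 208 and none in wild type. seb1, for a poly(A) site selection protein, had 157 bp in wild type and 179 bp in ABP1d, with scores of 698 and 613 that are those of the interval over the neighbouring U2 snRNA gene snu2. The rest, among them nop56, nop58, cbf5, gar1 and the nuclease genes pac1 and rrp6, had no interval in either list.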

How the data were processed

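Ser5P ChIP-seq of wild-type and ABP1d cells was used, with 1 interval list for each genotype; inputs were not analysed here. Per the submitters' processing notes, reads were aligned with Bowtie 0.12.5. What peak caller, genome build, depth scaling and multi-match rule were used, and whether the inputs entered, is not given in the sources used here. Per the labels' protocols, the libraries were made from ChIP DNA with a kit sold for RNA. The deposited lists hold chromosome, start, end and a whole-number score that the authors gave each interval. Its unit is not stated, and scores served to rank, filter and describe within each list. Scores of both lists are set side by side as deposited, and their ratio assumes a shared scale that the sources do not give. Depth is unknown, so no detection limit is given.

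The lists were checked against ASM294v3. No interval ended past a chromosome, and 89.6% of wild-type and 90.4% of ABP1d covered bases fell within protein-coding genes; shifts of 1000 to 10000 bp left at most 78.7% and 79.8%. Covered bp were counted over the gene and 250 bp on each side in Python 3.11.15 with pandas 2.3.3 and numpy 2.4.6. A highest score is that of any interval that meets the window, even where its score was reached outside it. The counting was checked on simulated intervals. U3 genes were aligned with Biopython 1.88. The snoRNA genes and the lists beside them were chosen with earlier results of these data known. Every snoRNA gene with an interval could be named, with its host, the protein-coding gene that holds its interval and the snoRNA protein genes. The genes mrp1, mamRNA, snoZ and snu2 were named after their values were seen, as were the position ranks, the alignment of the U3 genes and the counts of covered bp in hosts. Alternatives were other windows, score and length limits, a minimum of 50 covered bp, other host rules, chromosome III or the repeated gene left out, and 3 settings chosen after seeing the data. Alternatives for the count of hosts by covered bp were all chosen then.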

Additional observations from a re-analysis of the deposited data

How the results depend on the processing

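Of 146 values under alternative settings, 111 stayed within 1.5 times of the main value and 35 moved. That limit is wide: the main counts of free-standing genes, 23 in wild type and 16 in ABP1d, lie within it of each other. It therefore does not show that the gap between the lists is stable. With the gene alone, wild type marked 19 snoRNA genes and ABP1d 16, 14 of the wild-type ones free-standing and 5 in each list host-borne. The 2 genes then found in ABP1d alone were free-standing, not host-borne as in the main setting. Covered bp with the gene alone were 1840 and 1770 at free-standing and 820 and 796 at host-borne genes. With 100 bp on each side they were 3257 and 3276, and 1329 and 1496. With 500 bp on each side host-borne genes had 4079 and 4627 bp, and 0 genes were found in ABP1d alone. Requiring 50 covered bp left 23 snoRNA genes in wild type and 22 in ABP1d, of which 16 and 14 were free-standing. Then 3 genes were in wild type alone and 2 in ABP1d alone. With hosts of the same strand alone, 5 and 6 genes were host-borne and covered, with 1287 and 1457 bp.

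The alternatives outside protein-coding genes, as loci and by merged regions were chosen after seeing the data. Outside protein-coding genes, 17 snoRNA genes had an interval in ABP1d, 2 host-borne genes had one in each list (497 and 448 bp), and 1 gene had one in ABP1d alone. As loci, 4 were found in wild type alone. Over the upper 50% of merged regions by score, 14 free-standing genes had an interval in wild type, 17 genes in ABP1d, 6 of them host-borne, 4 in wild type alone and 0 in ABP1d alone, and 6 hosts had more bp in ABP1d and 1 in wild type. In each case the cause was not tested. Cutting intervals by score alone changed little by construction, since the median interval score was 206 in both lists. Counts of free-standing genes in ABP1d kept within 1.5 times of the main count in all 13 alternatives. No paired analysis was possible because each genotype has 1 list and no value comes from a test. Unknown depth limits every gene without an interval.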

Other observations

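Stable RNA genes outside the snoRNA list differed in coverage. The spliceosomal genes snu1, snu2, snu4 and snu5 were covered from end to end in both lists, with highest scores of 331, 698, 339 and 608 in wild type and 399, 613, 361 and 592 in ABP1d. snu6, the U6 gene, had no interval in its gene or window in either list, nor had ter1, for telomerase RNA, and srp7, for the RNA of the signal recognition particle. The RefSeq annotation gives snR48 the biotype snRNA, so it is not among the 66. It had 161 bp covered in its window in wild type and 174 bp in ABP1d, none inside the gene.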
